A study of Rattus norvegicus with 13 samples.

Results

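The 10 genes described here belong to fibroblast growth factor (FGF) signaling and its feedback inhibition: the receptors *Fgfr1* and *Fgfr2*, the inhibitors *Spred1*, *Spred2*, *Spred3*, *Spry1*, *Spry2* and *Spry4*, the phosphatase *Dusp6* and the transcription factor *Etv5*. They were chosen by gene name among the 14716 rows of the deposited normalized counts, 13228 of which carry a gene name, and all 10 names were found with 1 row each. The rows come from RNA-Seq of the posterior ventricular zone (VZ), the pseudostratified progenitor layer beside the ventricle, which was taken by laser capture microdissection from male Long Evans rat pups on postnatal day 2 (PN2). The question of the study was how a lack of thyroid hormone alters signaling in this layer. Control pups (n = 7) came from dams that drank water without the drug, and PTU exposed pups (n = 6) from dams that drank 3 ppm propylthiouracil (PTU), an inhibitor of thyroid hormone synthesis, from gestational day 6 onward. Each pup came from a different litter, so the spread between pups is biological as well as technical. The dissected layer was recognised by its shape after cresyl violet staining and not by a marker. In sections of control pups stained for SOX2, a marker of neural stem cells, the study found strong signal in this epithelium. Every value is a mean over the cells that fell within the outline. In such bulk samples, fewer cells of a type and less RNA per cell cannot be told apart.

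FGF ligands, held by heparan sulfate, bind FGF receptors, which are receptor tyrosine kinases that act through adaptors, RAS and the kinases RAF, MEK and ERK. FGF signaling is known to keep radial glia, the progenitors of the VZ, in a dividing state. Active ERK induces its own inhibitors: Sprouty proteins act between the receptor and RAF, Spred proteins bring the RAS-inactivating protein neurofibromin to the membrane, and DUSP6 removes phosphate from ERK, while ETV5 is an ETS transcription factor induced by the pathway.

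The values are counts that the authors estimated and scaled between pups by median ratio. The summed normalized counts ranged from 28137200 to 47779600 in control pups and from 24790300 to 43042700 in PTU exposed pups, and the 3 highest rows, which have no gene name, took from 32.4 to 60.1% and from 23.9 to 57.0% of them. The groups were compared with limma on log2(normalized count + 1), with p-values adjusted by the Benjamini-Hochberg procedure over the 14606 rows that averaged 10 or more, all 10 members among them. In limma, 0 of these rows had an adjusted p of at most 0.05, whereas 2383 had an unadjusted p of at most 0.05, 1185 of these with a higher and 1198 with a lower mean in PTU exposed pups. The VZ markers were present, as 11 of the 12 radial glia markers had a row, among them *Sox2*, *Pax6* and *Vim*. All 11 had a lower mean log2 value in PTU exposed pups (10, all but *Sox2*, with the same total for every pup; 7 with an unadjusted p of at most 0.05), with summed counts of 99640 to 138808 in control and 82319 to 110988 in PTU exposed pups. All 10 neuron markers had a higher mean log2 value (5 with an unadjusted p of at most 0.05; summed counts 53514 to 77410 against 70288 to 122864). All 10 choroid plexus markers had a lower one (5 with an unadjusted p of at most 0.05; summed counts 51578 to 144108 against 24725 to 103107), and *Ttr*, the defining transcript of that epithelium, averaged 91587 normalized counts in control and 51490 in PTU exposed pups. Of the markers of other cells, 7 of 7 for the oligodendrocyte lineage were higher (median log2 fold change 0.25) and 4 of 5 ependymal markers lower (-0.31), while those of endothelium and pericytes and of microglia were each lower for 2 of 6, and the 1 measured erythrocyte marker was lower (-0.47).

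None of the 10 members passed the test in limma, and the share of all rows that passed it was 0%. That result holds for limma on log2 values. The study itself, with a count model on the same pups, reported differentially expressed genes, among them *Spred1* as downregulated. The adjusted p-values of the members ranged from 0.122 to 0.963 in limma. By direction alone, 7 of the 10 had a lower mean log2 value in PTU exposed pups, where 49.3% of all rows did. An unadjusted p of at most 0.05 was reached by 3 members, *Spred1*, *Fgfr1* and *Fgfr2*, each with a lower mean in PTU exposed pups, whereas 8.2% of all rows were lower at that level. The median log2 fold change was -0.04 over the members and 0.00 over all rows tested. The groups overlapped for each of the 10 genes, and did not overlap for 0.596% of all rows tested.

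**Figure D1:**
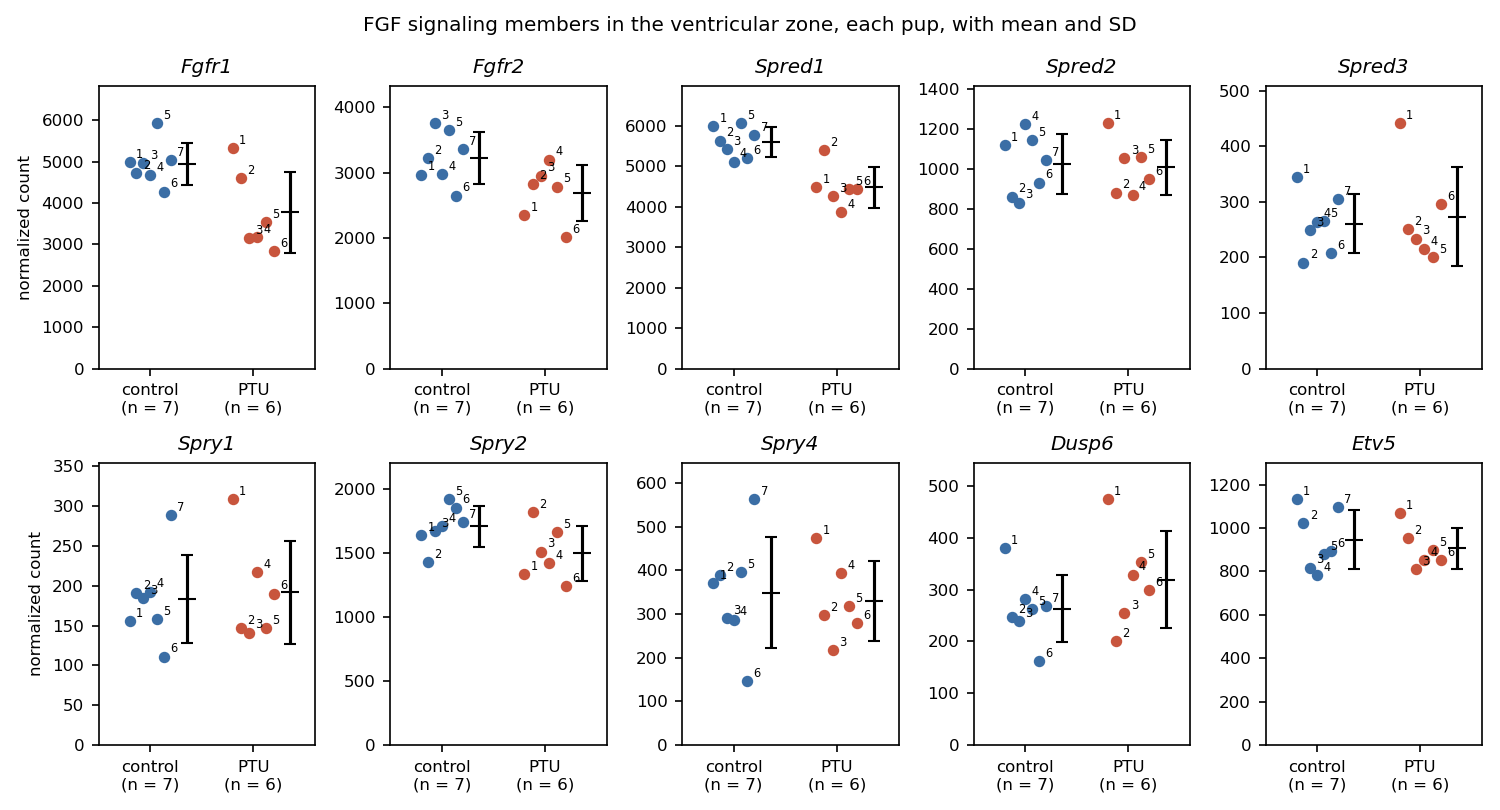
Normalized counts (y axis, starting at 0) of the 10 members in each of the 7 control (blue) and 6 PTU exposed (red) pups, with pup numbers beside the points and the mean and SD as a black bar. *Spred1* and *Fgfr1* show most PTU exposed pups below the controls with 1 or 2 exceptions, whereas the points of *Spred2*, *Spry1*, *Spry4* and *Etv5* cover similar ranges in both groups.

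*Fgfr1* and *Fgfr2* encode the receptors that start the cascade. *Fgfr1* had a lowest, median and highest value of 4276, 4969 and 5938 normalized counts in control pups and of 2847, 3352 and 5329 in PTU exposed pups. PTU pups 3, 4, 5 and 6, at 3162, 3171, 3533 and 2847, lay below every control pup, whereas PTU pups 1 and 2, at 5329 and 4602, lay within the control range. The mean was 4943 ± 512 (SD, n = 7) in control pups, whereas PTU exposed pups averaged 3774 ± 976 (SD, n = 6), a difference of -23.7%. The log2 fold change was -0.42 (standard error 0.13, 95% confidence interval -0.69 to -0.15, limma adjusted p = 0.156), and an exact permutation test, two-sided, unadjusted and enumerating 1716 ways to split the pups, gave p = 0.0198. PTU pup 1, which had the highest *Fgfr1* value of its group, also had the highest neuron marker score of all pups, 1.55 on the log2 scale. The log2 fold change of *Fgfr1* was -0.53 without that pup and -0.48 with the neuron marker score as a covariate.

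*Fgfr2* had a lowest, median and highest value of 2647, 3225 and 3760 in control and of 2011, 2808 and 3199 normalized counts in PTU exposed pups. All 6 PTU exposed pups were below the control mean, and 2 of them were below every control pup. The means of 3225 ± 397 (SD, n = 7) and 2687 ± 433 (SD, n = 6) differed by -16.7%. The log2 fold change was -0.27 (standard error 0.11, 95% confidence interval -0.50 to -0.04, limma adjusted p = 0.246), and the exact permutation test gave p = 0.0396. Over the 13 pups, *Fgfr2* values with the group mean removed were compared with the score of the radial glia markers. Pearson's r was 0.78 (permutation p = 0.00519, adjusted over 30 relations of members with marker scores 0.0778) and Spearman's rho 0.82 (adjusted permutation p = 0.0984), and r was 0.62 without PTU pups 1 and 6. Neither passed the adjustment. The centred *Fgfr2* values also had r = 0.70 with the choroid plexus score (adjusted permutation p = 0.12), and 0.28 without PTU pup 6 and control pup 6. With the neuron score r was -0.59 (adjusted permutation p = 0.192), and -0.56 without PTU pup 1 and control pup 1. The log2 fold change of *Fgfr2* was 0.08 with the radial glia score as a covariate, -0.10 with the choroid plexus score and -0.15 with the neuron score. For *Fgfr1* the same fits gave -0.32, -0.32 and -0.48. The radial glia score ranged from -0.048 to 0.42 in control and from -0.48 to -0.0045 in PTU exposed pups. It thus nearly separated the groups, and a fit that includes it can hardly tell the score from the exposure. With it, the lowest adjusted p of all rows in limma was 0.999. Whether radial glia content accounts for the *Fgfr2* difference was not tested.

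The other measured members of the receptor family had means on the same side as *Fgfr1* and *Fgfr2*. *Fgfr3*, a receptor also found in radial glia, averaged 1191 ± 408 normalized counts (SD, n = 7) without and 935 ± 186 (SD, n = 6) with PTU (log2 fold change -0.32, limma adjusted p = 0.367, and -0.17 without control pup 5). *Fgfrl1*, a receptor without a kinase domain, had 661 ± 131 and 570 ± 106 (-0.21, limma adjusted p = 0.475, and -0.13 without PTU pup 1 as well as without control pup 5). *Kl*, which encodes the co-receptor Klotho and is also on the choroid plexus marker list, had 2670 ± 800 and 1846 ± 863 (-0.59, limma adjusted p = 0.324, and -0.37 without PTU pup 6). Thus 5 of the 5 measured receptors and co-receptors had lower means, where 49.3% of all rows did. Of the 5, 2 had an unadjusted p of at most 0.05 in limma, where 8.2% of all rows were lower at that level. The median log2 fold change of the 5 was -0.32. All 5 were also lower when every pup was given the same total, with a median of -0.12. *Fgfr4* and *Klb* were not analysed here. Within pups, the log2 ratio of *Fgfr1* to *Fgfr2* was 0.62 ± 0.12 (SD, n = 7) without and 0.47 ± 0.44 (SD, n = 6) with PTU, a difference of -0.15 (exact permutation p = 0.391, adjusted over 7 ratios 0.584), which was -0.29 without PTU pup 1, -0.076 without PTU pup 3 and -0.053 without PTU pup 4. The ratio thus spanned 0.40 to 0.75 in control pups and -0.01 to 1.19 in PTU exposed pups. The log2 ratio of *Fgfr2* to *Fgfr3* differed by 0.05 (adjusted exact permutation p = 0.808).

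**Figure D2:**
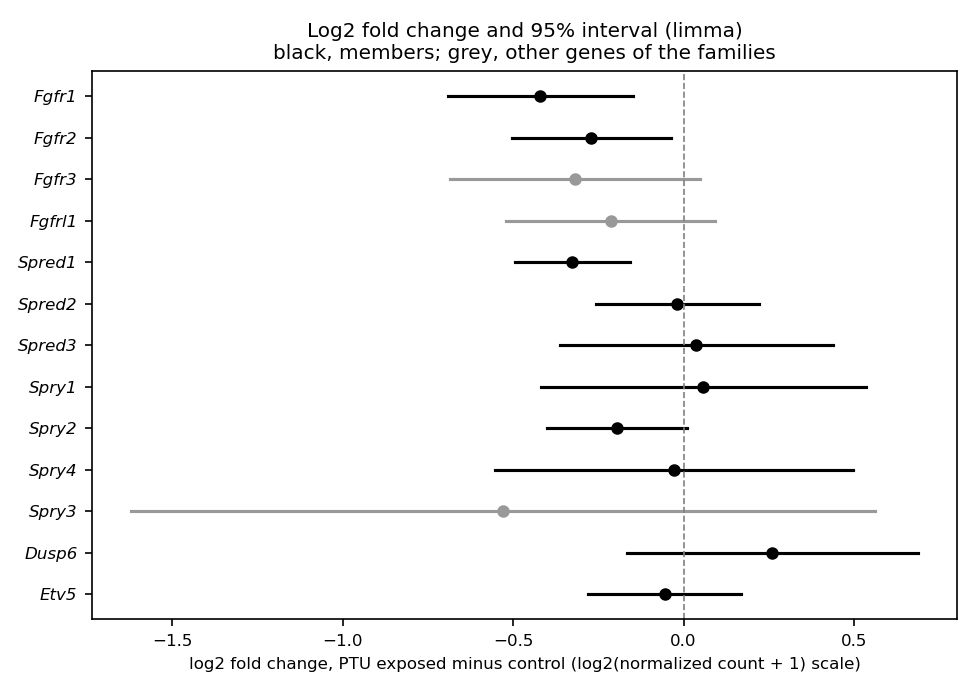
Log2 fold change, PTU exposed minus control (x axis, log2(normalized count + 1) scale), with the 95% confidence interval from limma for the 10 members (black) and for 3 other genes of the same families (grey). The intervals of *Fgfr1*, *Fgfr2* and *Spred1* lie below 0, and those of the other members include 0.

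Of the Spred genes, *Spred1* alone had an unadjusted p of at most 0.05. *Spred1* had a lowest, median and highest value of 5122, 5640 and 6080 normalized counts in control and of 3864, 4443 and 5413 in PTU exposed pups. PTU pup 2, at 5413, lay within the control range, and the other 5 PTU exposed pups lay below every control pup. The log2 fold change was -0.33 (standard error 0.08, 95% confidence interval -0.50 to -0.16, limma adjusted p = 0.122), and the exact permutation test gave p = 0.00233, where 0.000583 is the smallest p it can give. Without PTU pup 2, the log2 fold change was -0.38 with a limma adjusted p of 0.0324, when 0.808% of all rows were called as lower. *Spred1* was the only member called in any of the 27 alternatives. With marker scores as covariates, its log2 fold change was -0.32 for neurons, -0.36 for choroid plexus and -0.23 for radial glia.

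*Spred2*, which shares the neurofibromin-binding function, had a lowest, median and highest value of 831, 1046 and 1225 in control and of 871, 1001 and 1230 normalized counts in PTU exposed pups, so that the groups covered almost the same range. Its log2 fold change was -0.02 (95% confidence interval -0.26 to 0.22, limma adjusted p = 0.948). *Spred3* had 191, 265 and 344 in control and 201, 242 and 442 in PTU exposed pups, and its log2 fold change was 0.04 (95% confidence interval -0.36 to 0.44, limma adjusted p = 0.94). The highest *Spred3* value came from PTU pup 1, and centred values of *Spred3* had r = 0.81 with the neuron marker score, which did not pass the adjustment (adjusted permutation p = 0.0778), and r = 0.53 when PTU pup 1 and control pup 1 were left out.

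A ratio within a pup does not depend on how the pups were scaled. The log2 ratio of *Spred1* to *Spred2* was 2.47 ± 0.22 (SD, n = 7) without and 2.16 ± 0.26 (SD, n = 6) with PTU, a difference of -0.31 (exact permutation p = 0.0431, adjusted over 7 ratios 0.243). The log2 ratio of *Spred1* to *Spred3* differed by -0.36 (exact permutation p = 0.0693, adjusted 0.243), and by -0.22 without PTU pup 1. Neither difference passed the adjustment, so an unequal change of the Spred genes was not shown. *Nf1*, which encodes neurofibromin, the partner of Spred proteins, had 3655 ± 206 (SD, n = 7) and 3630 ± 211 (SD, n = 6) normalized counts, with a log2 fold change of -0.01 (95% confidence interval -0.15 to 0.13) that took either sign when 1 pup was left out, from -0.035 to 0.0086.

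Over the 13 pups, the named genes whose centred log2 values were most like those of *Spred1*, among 11076 named rows that averaged 100 or more, were *Golm2* (Pearson's r = 0.95), *Glo1* (0.93), *Phlda1* (0.91), *Krit1* (0.91) and *Mier3* (0.91). Without the 2 pups farthest from their group mean of *Spred1*, these values were 0.88, 0.81, 0.88, 0.85 and 0.86. These 5 are the highest of many correlations over the same libraries and are given as a description. *Phlda1*, an ERK-induced gene, had 1505 ± 270 normalized counts (SD, n = 7) without and 1123 ± 253 (SD, n = 6) with PTU (log2 fold change -0.43, limma adjusted p = 0.167).

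The Sprouty genes showed no difference past the threshold. *Spry2* had a lowest, median and highest value of 1425, 1710 and 1917 in control and of 1242, 1465 and 1821 normalized counts in PTU exposed pups, with 1707 ± 159 (SD, n = 7) and 1498 ± 214 (SD, n = 6) on average. Its log2 fold change was -0.20 (95% confidence interval -0.40 to 0.01, limma adjusted p = 0.328, exact permutation p = 0.0659). With marker scores as covariates, its log2 fold change was -0.11 for neurons, -0.22 for choroid plexus and 0.04 for radial glia. *Spry1* had 111, 185 and 289 in control and 141, 169 and 308 in PTU exposed pups, and its log2 fold change was 0.06 (95% confidence interval -0.42 to 0.53, limma adjusted p = 0.924). *Spry4* had 147, 371 and 563 in control and 217, 308 and 474 in PTU exposed pups, and its log2 fold change was -0.03 (95% confidence interval -0.55 to 0.50, limma adjusted p = 0.963). Both genes varied widely between pups of the same group, by more than 2-fold from the lowest to the highest pup. *Spry3*, the remaining Sprouty gene, had 41.7 ± 13.5 and 37.2 ± 29.0 normalized counts (log2 fold change -0.53, limma adjusted p = 0.633). That value was -0.12 without PTU pup 2, -0.29 without PTU pup 5 and -0.84 without PTU pup 1. In the whole Spred and Sprouty family, 5 of 7 genes had a lower and 2 a higher mean log2 value, with a median log2 fold change of -0.03; with the same total for every pup, *Spred2*, *Spry2* and *Spry4* turned and the split was 2 lower and 5 higher.

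Of the transcripts induced by ERK, *Dusp6* had a lowest, median and highest value of 162, 263 and 380 in control and of 201, 314 and 474 normalized counts in PTU exposed pups. The means were 263 ± 64.7 (SD, n = 7) and 318 ± 93.6 (SD, n = 6), and the log2 fold change was 0.26 (95% confidence interval -0.17 to 0.69, limma adjusted p = 0.534, exact permutation p = 0.258). The value depended on single pups and on the marker scores: it was 0.14 without PTU pup 1, 0.15 without control pup 6, 0.040 with the neuron score, 0.036 with the radial glia score and 0.46 with the choroid plexus score as a covariate. *Etv5* had 784, 895 and 1132 in control and 809, 876 and 1069 in PTU exposed pups, and its log2 fold change was -0.06 (95% confidence interval -0.28 to 0.17, limma adjusted p = 0.83). With 1 pup left out it ranged from -0.10 (without PTU pup 1) to -0.011 (without control pup 1). The log2 ratio of *Dusp6* to *Etv5* differed by 0.32 between groups (exact permutation p = 0.135, adjusted 0.315). For neither transcript did the difference pass the threshold, and both intervals include 0.

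The pups themselves differed in these transcripts within groups. Of the 10 pairs among *Dusp6*, *Etv5*, *Spry1*, *Spry2* and *Spry4*, only *Spry1* and *Spry4* had a Pearson correlation of centred log2 values past the threshold (r = 0.81, n = 13, permutation p = 0.00225, adjusted 0.0225). Spearman's rho was 0.71 (permutation p = 0.013, adjusted 0.13), and r was 0.70 without control pup 6 and PTU pup 1, which lay farthest from the median of *Spry1*. With 1 pup left out, r was lowest, at 0.74, without control pup 7. Within groups r was 0.82 in control and 0.85 in PTU exposed pups. Control pup 6 had the lowest value of both genes among controls (111 and 147 normalized counts) and control pup 7 the highest (289 and 563), while PTU pup 1 had the highest of both among PTU exposed pups (308 and 474). *Spry4* and *Dusp6* had r = 0.68 (adjusted permutation p = 0.0846) and r = 0.52 without control pup 6 and PTU pup 2. *Spry4* and *Etv5* had r = 0.58 (adjusted permutation p = 0.137), and the 4 pairs with *Spry2* had r from -0.50 to -0.16, none of which passed the adjustment. Without the 2 pups farthest from the median, the r of *Spry2* was 0.035 with *Etv5* and -0.069 with *Dusp6*. It was -0.12 with *Spry4* without control pup 6 and -0.23 with *Dusp6* without PTU pup 2.

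These correlations share the same 13 libraries, and none of the 30 relations of members with marker scores passed the adjustment. Centred values of *Spry4* had r = 0.66 with the choroid plexus score (adjusted permutation p = 0.12), and those of *Spry1* had r = 0.58 (adjusted permutation p = 0.192). Control pup 6, lowest of the controls for *Spry1*, *Spry4*, *Fgfr1*, *Fgfr2* and *Dusp6*, had the lowest choroid plexus score of the controls (-0.70), and PTU pup 1 was highest of its group for 7 of the 10 members. According to the study, choroid plexus cells were not part of the dissected material. All 10 markers of that epithelium had values above 0 in all 13 pups. The part of choroid plexus or neuronal RNA in the correlation of *Spry1* with *Spry4* was not tested.

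**Figure D3:**
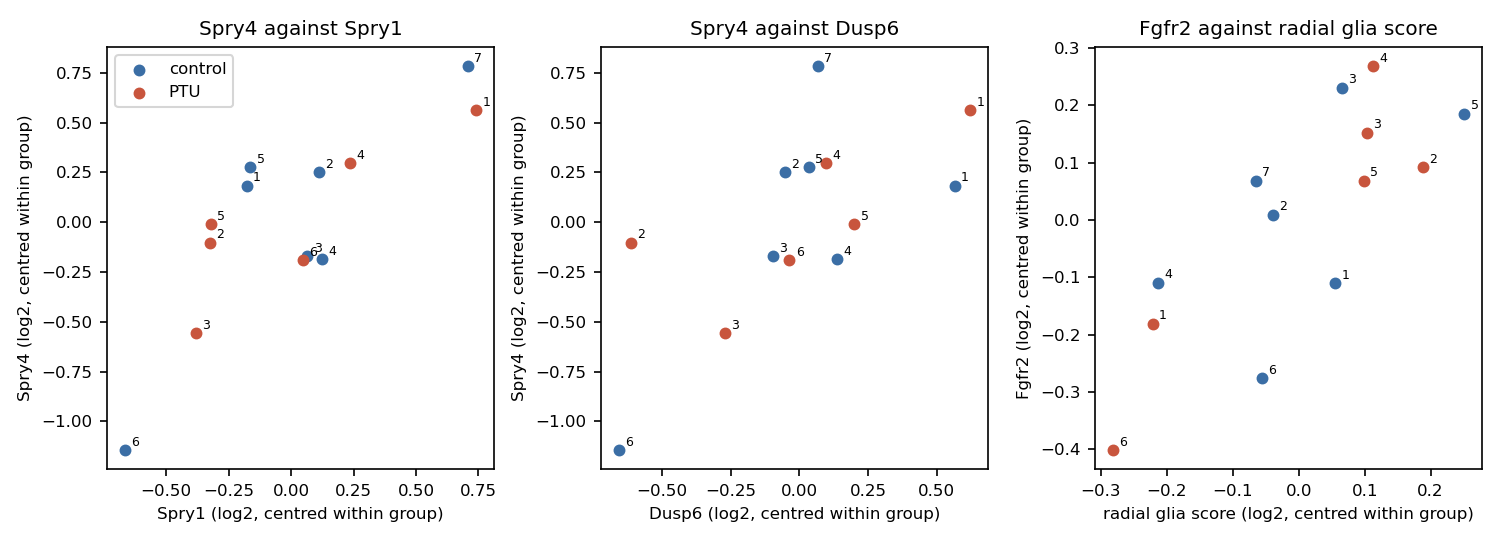
Each point is 1 of the 13 pups (blue control, red PTU exposed, with pup numbers), and both axes give log2 values with the group mean removed: *Spry4* against *Spry1* (r = 0.81), *Spry4* against *Dusp6* (r = 0.68) and *Fgfr2* against the radial glia marker score (r = 0.78). In the first panel control pup 6 lies at the lower left and control pup 7 and PTU pup 1 at the upper right.

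The promoters of *Dusp6* and *Spry4* are shown because they were the only ones, of the members with a promoter sequence, with a match to the octamers searched. These octamers are among those bound by Capicua (CIC), a repressor that ERK is known to inactivate. The sequences are from RefSeq on build GRCr8, a later build than that of the counts, and run from 250 bases before to 50 bases after the start of the gene. Of the 10 members, 9 were matched by symbol, all but *Fgfr1*. The *Dusp6* promoter lies at chr7:35979354-35979653 (plus strand) and that of *Spry4* at chr18:30702497-30702796 (minus strand). Capitals mark the matches, which are written on the strand of the gene and are therefore the reverse complements of the octamers found.
Dusp6: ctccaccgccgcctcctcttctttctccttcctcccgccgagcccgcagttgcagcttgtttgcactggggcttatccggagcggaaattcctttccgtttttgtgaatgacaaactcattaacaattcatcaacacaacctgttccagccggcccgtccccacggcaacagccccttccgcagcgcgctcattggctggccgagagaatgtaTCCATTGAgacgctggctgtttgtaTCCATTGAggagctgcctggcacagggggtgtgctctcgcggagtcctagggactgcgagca
Spry4: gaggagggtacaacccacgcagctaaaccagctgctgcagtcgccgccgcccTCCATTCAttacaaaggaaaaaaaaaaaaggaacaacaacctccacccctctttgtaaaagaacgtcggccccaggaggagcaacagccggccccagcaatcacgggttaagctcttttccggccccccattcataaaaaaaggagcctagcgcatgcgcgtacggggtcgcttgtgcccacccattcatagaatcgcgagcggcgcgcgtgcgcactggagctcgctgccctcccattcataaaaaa
The octamers searched on both strands were TGAATGAA, TGAATGGA, TCAATGAA and TCAATGGA. *Dusp6* held TCAATGGA at 2 places, starting 37 and 12 bases before the gene start, and *Spry4* held TGAATGGA 198 bases before it. At least 1 of the 4 octamers occurred in 4.26% of the 33469 rat promoters of this length. The ETS motifs CCGGAAGT and ACCGGAAG, which overlap each other in 7 letters, occurred in 4.98% of all promoters and in 0 of the 9 members. A match describes the letters only, and binding was not measured.

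The rest of the pathway was examined as lists, beside a median log2 fold change of 0.00 and 49.3% of rows lower over all rows tested. Of 23 FGF ligands, 6 had a row. *Fgf1* had 210 ± 76.8 normalized counts (SD, n = 7) without and 126 ± 61.1 (SD, n = 6) with PTU (log2 fold change -0.77, limma adjusted p = 0.286). *Fgf14*, whose product stays inside the cell and binds sodium channels, had 197 ± 52.8 and 363 ± 189 (0.75, limma adjusted p = 0.232). The other 4, *Fgf9*, *Fgf11*, *Fgf12* and *Fgf13*, had log2 fold changes from 0.08 to 0.79. The products of *Fgf11*, *Fgf12* and *Fgf13* are likewise intracellular and known mainly from neurons, and the neuron marker scores ranged from -0.93 to 0.26 in control and from -0.31 to 1.55 in PTU exposed pups. Their part in the values of these genes was not tested. Of the 13 heparan sulfate enzymes, 8 had a lower and 5 a higher mean, and *Hs3st1*, a sulfotransferase, had an unadjusted p of at most 0.05 (log2 fold change -0.29, limma adjusted p = 0.294).

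Of the 22 measured adaptors and kinases between receptor and ERK, 16 had a higher and 6 a lower mean log2 value, with a median log2 fold change of 0.08. *Sos1*, the exchange factor that loads RAS, had 2691 ± 245 and 3064 ± 348 normalized counts (log2 fold change 0.18, limma adjusted p = 0.302), and *Mapk3*, which encodes ERK1, had 1007 ± 142 and 1199 ± 198 (0.25, limma adjusted p = 0.298, and 0.17 without PTU pup 4). Of 16 other inhibitors and binding partners, 10 were higher and 6 lower. *Il17rd*, a membrane inhibitor of FGF signaling, had 707 ± 73.8 and 601 ± 85.4 (-0.24, limma adjusted p = 0.292), on the same side as *Spred1*. *Flrt1* and *Flrt3*, transmembrane proteins that bind FGF receptors, lay on the other side, with log2 fold changes of 0.29 and 0.46 (limma adjusted p = 0.245 and 0.175); that of *Flrt1* was 0.18 without PTU pup 1. All 6 PTU exposed pups were above the control mean for *Flrt3*.

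Among the 7 measured MAPK phosphatases, 5 were higher and 2 lower, with a median log2 fold change of 0.33. *Dusp8*, which acts on JNK and p38, had 692 ± 144 and 1025 ± 236 normalized counts (log2 fold change 0.56, limma adjusted p = 0.146), with all 6 PTU exposed pups above the control mean. *Dusp7*, an ERK phosphatase close to *Dusp6*, had 387 ± 89.2 and 597 ± 271 (0.54, limma adjusted p = 0.276). Of the 13 measured ERK-induced transcripts, 7 were lower and 6 higher. *Egr1*, an immediate early gene, had 138 ± 64.8 and 235 ± 121 (0.74, limma adjusted p = 0.255), and lay opposite to *Phlda1*.

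Of the 13 other receptor tyrosine kinases, 6 were lower and 7 higher. The 4 with an unadjusted p of at most 0.05 in limma were lower, where 8.2% of all rows were lower at that level. *Erbb2*, a co-receptor for neuregulins, had a log2 fold change of -0.42 (limma adjusted p = 0.183). *Ntrk2*, the receptor for brain-derived neurotrophic factor, had -0.36 (limma adjusted p = 0.215), and *Ddr1*, a collagen receptor, had -0.33 (limma adjusted p = 0.218). *Pdgfrb*, which is also a pericyte marker, had -0.26 (limma adjusted p = 0.299). None of the genes in these 9 lists passed the adjusted threshold.

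**Figure D4:**
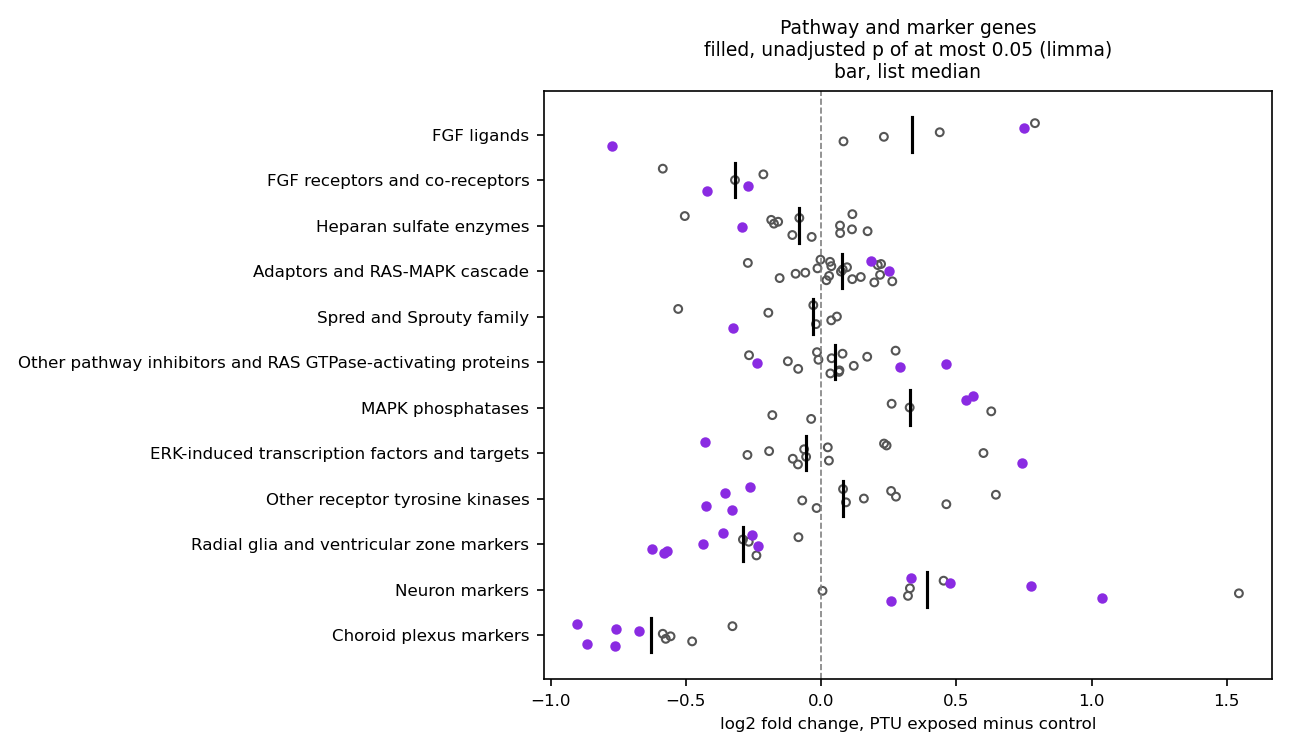
Log2 fold change, PTU exposed minus control (x axis), of every measured gene of the 9 pathway lists and of 3 marker lists (y axis); filled points have an unadjusted p of at most 0.05 in limma and black bars are list medians. All 5 receptors and co-receptors lie below 0, as do all 11 radial glia and all 10 choroid plexus markers, whereas all 10 neuron markers lie above 0.

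The scaling of the pups moved all of these values together. When every pup was given the same total, the median log2 fold change of all rows was 0.20, and 1585 rows were higher and 81 lower at an unadjusted p of at most 0.05. The log2 fold changes were then -0.13 for *Spred1*, -0.22 for *Fgfr1*, -0.07 for *Fgfr2* and 0.01 for *Spry2*. Relative to that median they were -0.33, -0.42, -0.27 and -0.20, which follows from the arithmetic, since a change of totals shifts all rows by nearly the same amount. Without the correction, the lists split into 2 lower and 11 higher for the heparan sulfate enzymes, 1 and 21 for the adaptors and kinases, and 2 and 14 for the other inhibitors. The split was 0 and 7 for the phosphatases, 2 and 11 for the ERK-induced transcripts and 4 and 9 for the other receptor tyrosine kinases, while it stayed at 1 and 5 for the ligands. With the 3 highest rows left out of the total, the values were -0.32 for *Spred1*, -0.41 for *Fgfr1* and -0.26 for *Fgfr2*.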

How the data were processed

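VZ samples from 13 pups (7 control, 6 PTU exposed) were sequenced by the authors from stranded total RNA libraries after depletion of ribosomal RNA. The study reports some degradation of the RNA from the dissected VZ, and RNA integrity was not part of any fit here. After trimming with Trimmomatic and alignment with STAR 2.7.8a to the rat genome mRatBN7.2, the authors quantified transcripts by expectation/maximization in Partek and scaled the pups by median ratio. The deposited normalized counts are thus a non-negative signal. Whole reads could not be recovered from them, so no count model was used and the read depth behind a value is unknown. Each member's row carries an Ensembl transcript identifier, although a RefSeq annotation is named in the methods; whether a row holds 1 isoform or the whole gene was not resolved, so a value is that of the row with the gene's name. Deposited columns of the authors' own comparison (p-value, FDR, ratio, log2 ratio, fold change and group means) were not used.

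The members and lists were chosen with earlier results of these data known. Rows were compared with limma 3.58.1 in R 4.3.3 (empirical Bayes with a variance trend, pseudocount of 1, mean of at least 10, threshold 0.05), tested on simulated data. Single genes and 7 within-pup ratios were compared with two-sided exact permutation tests, and correlations of values centred within groups with 100000 permutations. Marker scores are the mean of row-centred log2 values over a list. All members were named, with list genes that had an unadjusted p of at most 0.05 in limma, every measured receptor, co-receptor, Spred and Sprouty gene, and the 5 genes most like *Spred1*; *Nf1*, *Fgf9*, *Fgf11*, *Fgf12* and *Fgf13* were added after their values were seen. The alternatives were pseudocounts of 0.1 and 10, other filters, scalings and weights, no variance trend, summed rows, the replicate number as a block, marker scores as covariates and each pup left out in turn. The correlation between pups over all rows tested was 0.918 to 0.980, so no pair of libraries was identical.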

Additional observations from a re-analysis of the deposited data

How the results depend on the processing

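No member was called in 26 of 27 alternatives; leaving out 1 pup gave 0 to 1 called members, and the 1 was *Spred1* without PTU pup 2. The log2 fold changes of *Spred1*, *Fgfr1* and *Dusp6* kept their sign in all alternatives, but that of *Dusp6* ranged from 0.036 to 0.46. The adjusted p of *Fgfr1* in limma was lowest, at 0.0529, with pups weighted by quality. Over all rows, 40 were called with quality weights, 18 with the replicate block, 4 with the choroid plexus score as a covariate and 0 to 179 with 1 pup left out (7 without control pup 6, 179 without PTU pup 2).

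With the same total for each pup, 3 members were lower in place of 7, and the log2 fold change changed sign for *Spred2* (0.18), *Spry2* (0.0061), *Spry4* (0.17) and *Etv5* (0.15); here the median of all rows moved as well. With quality weights it changed sign for *Spred3* (-0.065) and *Spry1* (-0.10), with the neuron score for *Spred3* (-0.24) and *Spry1* (-0.17), and with the choroid plexus score for *Spred2* (0.011) and *Spry4* (0.35). With the radial glia score, an alternative chosen after seeing the data, it changed sign for *Spred3* (-0.27), *Spry1* (-0.35), *Spry2* (0.039) and *Fgfr2* (0.077). That score nearly separates the groups, so a fit with it can hardly tell the score from the exposure. With 1 pup left out, the ranges were -0.079 to 0.026 for *Spred2*, -0.11 to 0.11 for *Spred3*, -0.090 to 0.18 for *Spry1*, -0.22 to 0.10 for *Spry4*, -0.29 to 0.045 for the ratio of *Spry2* to *Spry4* and -0.065 to 0.098 for that of *Fgfr2* to *Fgfr3*. None of these log2 fold changes or ratios had an adjusted p of at most 0.05 in any of these settings (limma for genes, exact permutation test for ratios), and the cause of each change was not tested.

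The replicate block gave *Spry4* a log2 fold change of 0.10, as did leaving out control pup 7, which has no partner with its number. The block called no member (*Spred1* -0.32, adjusted p = 0.0679 in limma). Same-numbered pups came from different litters, and no label ties a number to a shared litter or day. The deviations of same-numbered pups from the group means had correlations of 0.17, 0.20, -0.07, 0.0069, 0.11 and 0.16 for numbers 1 to 6, so 4 of 6 were over 0.1 and 2 were not; as not every pair was, the numbers were not treated as pairing the pups.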
